A study of Mus musculus with 4 samples.

Results

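Isolated TBX5 peaks were the 2250 peaks, of 11224 in the deposited list, that had a signal value below 61.27 and no other peak summit within 100 kb on the same chromosome. They were chosen by 2 measured values, the signal of the peak and the distance from its summit to the nearest other summit. They made up 20.05% of the list and 22.3% of the 10101 peaks below the signal limit. The other 7851 peaks below the limit, each with a summit within 100 kb, served for comparison. The peaks came from ChIP-seq, in which chromatin fragments bound by a protein are enriched with an antibody and sequenced, on forelimbs of wild type ICR mice, an outbred stock, at embryonic day 10.5. The series holds 2 TBX5 libraries, made with a polyclonal antibody, and 2 input libraries of chromatin that was not enriched, and 1 peak list for both ChIP libraries. The labels do not say how many embryos were pooled for a library, and forelimb tissue holds several cell types, so a peak cannot be traced to one of them.

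TBX5 is a T-box transcription factor that binds DNA through its T-box domain and is needed for the forelimb bud to form, where Fgf10 is a known target. Many enhancers that act in the limb bud lie far from the gene they control, and genes of limb development often have several such elements spread around them. A peak list of a limb factor can therefore hold groups of neighbouring peaks. The isolated peaks are those with no other listed peak within 100 kb, which does not keep them from lying in a wider group.

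Each peak has 1 signal value, the strength given by the authors' peak caller on a scale that is not stated, and 1 score for the irreproducible discovery rate (IDR). The IDR is estimated from the ranks of peaks in both replicates. A high score stands for a low IDR, that is for better agreement between the replicates. Scores ran from 540, the value at an IDR of 0.05, to 1000. The list gives no value for a single replicate, so no spread between replicates could be attached to any peak, and the depth is unknown. All measures below come from the peak calls that also chose the members. Peaks do not replicate the experiment, so these measures are given as descriptions and no test was made.

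Isolated peaks were about as strong as the other peaks below the limit. The rule cuts both sets at a signal of 61.27, so stronger peaks do not enter this comparison. Their signal ran from 5.90 to 61.2, with quartiles of 21.2 and 35.2 and a median of 26.4. The other peaks had a median of 25.3 and quartiles of 19.1 and 34.9, so the middle ranges of the sets overlapped almost entirely. The difference of 1.09 in the medians rested on peaks with a very close neighbour. Among the other peaks, 2115 had a summit within 500 bp and a median signal of 17.4, whereas the 5736 without one had a median of 27.4. Against the latter, a set picked once the values were known, the difference in medians was -0.984.

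Along the distance to the nearest summit, signal changed little outside the closest range. Peaks below the limit with a neighbour 0.5 to 2 kb away had a median signal of 28.4, those with one 2 to 10 kb away 28.3, and those with one 10 to 50 kb away 27.3. At 50 to 100 kb, just outside the isolation rule, the median was 26.3. Among isolated peaks it was 26.5 for the 1061 with a neighbour 100 to 200 kb away, 26.4 for the 900 at 200 to 500 kb, 25.8 for the 228 at 500 kb to 1 Mb and 28.02 for the 61 beyond 1 Mb. The last group is small, and its quartiles of 22.97 and 38.3 enclose the medians of all the other groups beyond 0.5 kb. Across the 2250 isolated peaks, distance and signal had a Spearman's rho of -0.02, and distance and score one of -0.04. The rule limits both distance and signal in these peaks, so these values describe only the range it leaves.

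**Figure D1:**
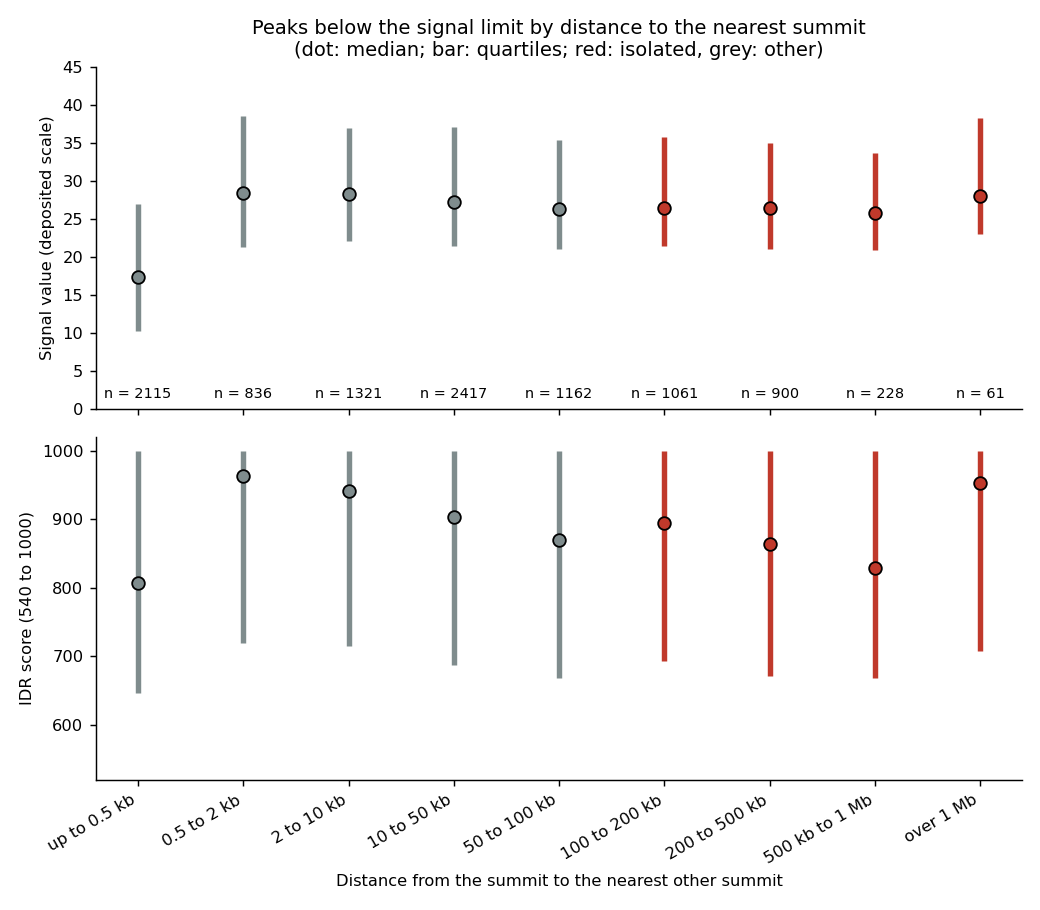
Signal value (upper panel) and IDR score (lower panel) of the peaks below the signal limit, by distance from the summit to the nearest other summit, with dots for medians and bars for quartiles over peaks. Only the peaks within 0.5 kb of another summit stand low in signal, at a median of 17.4, while the isolated groups in red lie between 25.8 and 28.02.

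Very strong peaks were somewhat less often alone. Of the 1123 peaks at or above the limit, 188 (16.7%) had no summit within 100 kb, against 22.3% of the peaks below it. Seen from the other side, 7.71% of all 2438 peaks without a neighbour in that range were at or above the limit, against 10.6% of the 8786 peaks with one. By distance to the nearest summit, the share of such strong peaks was 6.17% up to 0.5 kb, 15.1% at 0.5 to 2 kb, 14.9% at 2 to 10 kb, 10.8% at 10 to 50 kb and 9.50% at 50 to 100 kb. Beyond the threshold it was 7.82% at 100 to 200 kb, 7.41% at 200 to 500 kb and 9.16% at 500 kb to 1 Mb. Over 1 Mb it was 4.69%, or 3 of 64 peaks. From 0.5 kb outward the share thus declined with distance except at 500 kb to 1 Mb, where 23 of 251 peaks were that strong. The strongest peak without a neighbour lay on chromosome 8 at 5482959 to 5483265 with a signal of 192.0, and its nearest summit was 308.0 kb away. It is no member because of its signal.

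The scores of the sets were close in the plain comparison and differed more once very close summits were set aside. The median score was 875.5 for isolated peaks, which corresponds to an IDR of 0.00779, and 884 for the other peaks below the limit. The quartiles were 683 and 1000 for isolated peaks and 677 and 1000 for the others. An IDR of 0.01 or below was reached by 1233 isolated peaks (54.8%), against 55.5% of all peaks below the limit. The highest score of 1000 was reached by 869 isolated peaks (38.6%), against 39.3% of all below the limit. Both shares lie near the background. Against the 5736 other peaks with no summit within 500 bp, which had a median score of 917 and 58.7% at an IDR of 0.01 or below, the differences were -41.5 in score and -3.90 percentage points. With overlapping peaks joined, they were -54 and -5.30 points. By distance, the median score of the other peaks was 807 up to 0.5 kb, 964 at 0.5 to 2 kb and 942 at 2 to 10 kb. It was 904 at 10 to 50 kb and 870.5 at 50 to 100 kb. In that last group 54.0% had an IDR of 0.01 or below, so it lay close to the isolated peaks in both measures. The median score of isolated peaks was 895 at 100 to 200 kb and 864.5 at 200 to 500 kb. It was 829 at 500 kb to 1 Mb and 953 beyond 1 Mb, with no steady order.

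Score followed signal in both sets. Among isolated peaks signal and score had a Spearman's rho of 0.86 (n = 2250), and among the other peaks one of 0.75 (n = 7851). Both values come from the same libraries, and scores have a ceiling at 1000. When the peaks below the limit were divided into 10 deciles of signal, the median score of isolated peaks rose from 594 in the second decile (signal 13.4 to 18.5) to 791 in the fifth (22.95 to 25.6) and to the ceiling of 1000 from the seventh on (28.6 and above). In 4 deciles the medians of isolated and other peaks were equal, all at the ceiling. In 5 deciles isolated peaks scored lower and in 1, the sixth, higher. The gap was widest in the lowest decile, where the median was 619 for 45 isolated peaks and 690 for 966 others. Of those 966 peaks, 805 had a summit within 500 bp. Against the 161 that had none, with a median of 631, the gap was 12. Some peaks with a summit within 500 bp had the same score as that neighbour despite a different signal. At signals of 19.2 and 9.80, for example, neighbours both scored 704. Other such neighbours differed, as at signals of 28.4 and 7.70 with scores of 740 and 556. How often scores were shared was not counted. Beyond leaving out such peaks, the effect on this gap, the rho of 0.75 and the weighted score below was not tested.

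With the other peaks weighted to the signal deciles of the isolated ones, their median score was 906, a difference of -30.5 for isolated peaks, and 58.5% had an IDR of 0.01 or below. When peaks with a summit within 500 bp were also left out, the weighted median was 884 and the share 55.9%. In that comparison, added with the values known, the difference was -8.5 in median score and -1.10 percentage points in the share.

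**Figure D2:**
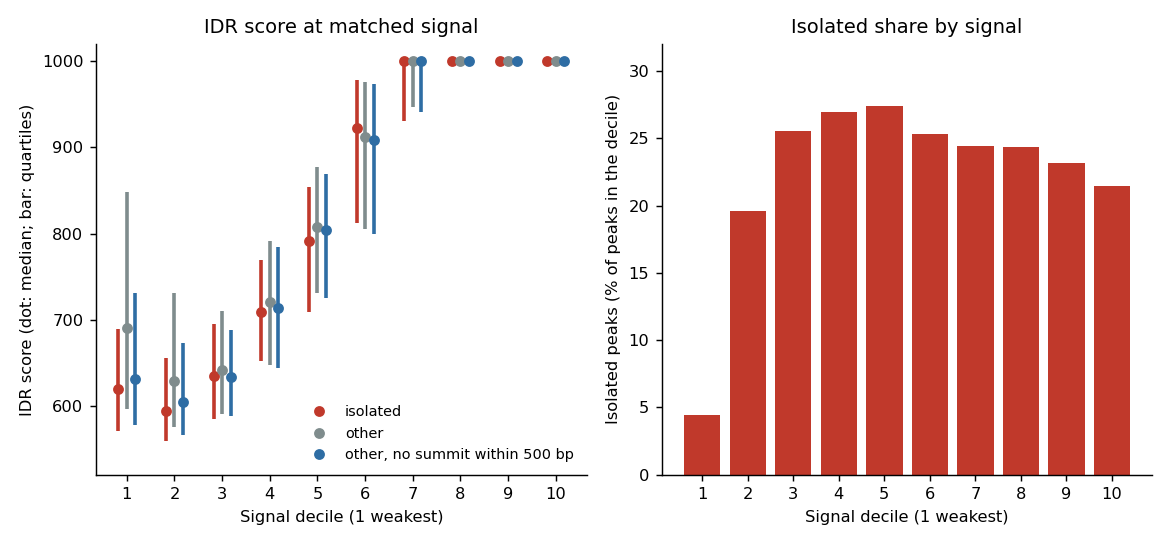
IDR score by decile of signal (left; dots for medians, bars for quartiles) for isolated peaks, other peaks below the limit and those others with no summit within 500 bp, and the percentage of peaks in each decile that were isolated (right). The sets run together except in the lowest deciles, and isolated peaks made up 4.45% of the weakest decile against 19.6 to 27.4% of the rest.

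The weakest peaks of the list were rarely isolated, and most of them had a very close summit. In the lowest decile (signal 5.29 to 13.4) 45 of 1011 peaks (4.45%) were isolated, against 19.6% in the second decile and at most 27.4%, in the fifth. From the fifth decile on the share declined to 21.5% in the highest. Among the 206 peaks of the lowest decile with no summit within 500 bp, the share isolated was 21.8%, against 28.2% of all 7986 such peaks below the limit. The 3 weakest members had signals of 5.90 on chromosome 7 (108970119 to 108970534), 6.40 on chromosome 5 (65269087 to 65269502) and 6.47 on chromosome 2 (75541021 to 75541436). Their scores were 575, 580 and 655, so all of them lay nearer to the lower limit of the list than to its ceiling. The peak on chromosome 2 stood in a dense stretch, with 57 other summits within 1 Mb but none within 114.5 kb.

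By the peak caller's own significance, 2226 isolated peaks (98.9%) had a q-value of 0.05 or below, against 93.3% of all peaks below the limit. The 24 members with a higher q-value, up to 0.705, had signals of 5.90 to 10.6 and all belonged to the lowest decile. Only 1 of these 24 had an IDR of 0.01 or below. Among the other peaks below the limit, 657 (8.37%) had a q-value above 0.05, and 573 of these had a summit within 500 bp. In the 5736 others without such a summit the share at 0.05 or below was 98.5%, close to that of the isolated peaks.

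The width of isolated peaks was almost uniform. A width of 416 bp, the most frequent in the list, was found in 2117 isolated peaks (94.1%), against 93.2% of all peaks below the limit. The remaining 133 members were all narrower, between 104 and 319 bp with a median of 154 bp, and were mostly strong, with a median signal of 53.9. No isolated peak was wider than 416 bp, but only 8 of all 10101 peaks below the limit were, up to 570 bp. All 8 had a summit within 500 bp. With so few wide peaks, nothing is read from their absence among the 2250 members. Width followed signal in both sets. In the lowest 4 deciles of signal all 773 isolated peaks had the common width, and in the highest decile 112 of 217 (51.6%) did, beside 50.1% of the others in that decile. The 188 peaks above the limit without a neighbour had the common width in 3.19% of cases, and 3 of them were wider, up to 565 bp. Summits lay at the middle of the interval in 94.3% of isolated peaks, against 93.3% of all peaks below the limit.

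Isolated peaks were spread over all 20 chromosomes of the list, and their share was highest on X. On X 62 of 138 peaks below the limit (44.9%) were isolated. Among the 19 autosomes the share ran from 17.01% on chromosome 14 (92 of 541) through a median of 21.2% to 27.6% on chromosome 16 (102 of 370), so X lay outside the autosomal range. Chromosomes 17 (27.5%), 15 (26.8%) and 9 (26.5%) followed chromosome 16, and chromosomes 8 (18.7%) and 2 (19.1%) were nearest to chromosome 14. X also had few peaks in all. Its mean distance between neighbouring summits was 1058 kb, against 177.4 to 285.7 kb on the autosomes. Sparse peaks and isolation cannot be told apart there, because the rule measures distance to any other summit.

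In number per Mb between the first and last summit, isolated peaks were less frequent on X than on any autosome. X held 0.388 isolated peaks per Mb, against 0.93 ± 0.113 on autosomes (mean ± SD of 19 chromosomes; range 0.672 on chromosome 7 to 1.09 on chromosome 16). That is 0.418 times the autosomal mean. The other peaks below the limit were at 0.476 per Mb on X and 3.28 ± 0.535 on autosomes, a ratio of 0.145. X thus had a smaller deficit of isolated peaks than of peaks with neighbours. The sparser the peaks of a chromosome, the more of them the rule takes, so this contrast is partly built in. Among the autosomes the isolated share was lower where peaks were denser (Spearman's rho -0.60 over 19 chromosomes), while the number of isolated peaks per Mb went weakly the other way (rho 0.32). The share and the density contain the same peaks, so neither relation is free of the rule.

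**Figure D3:**
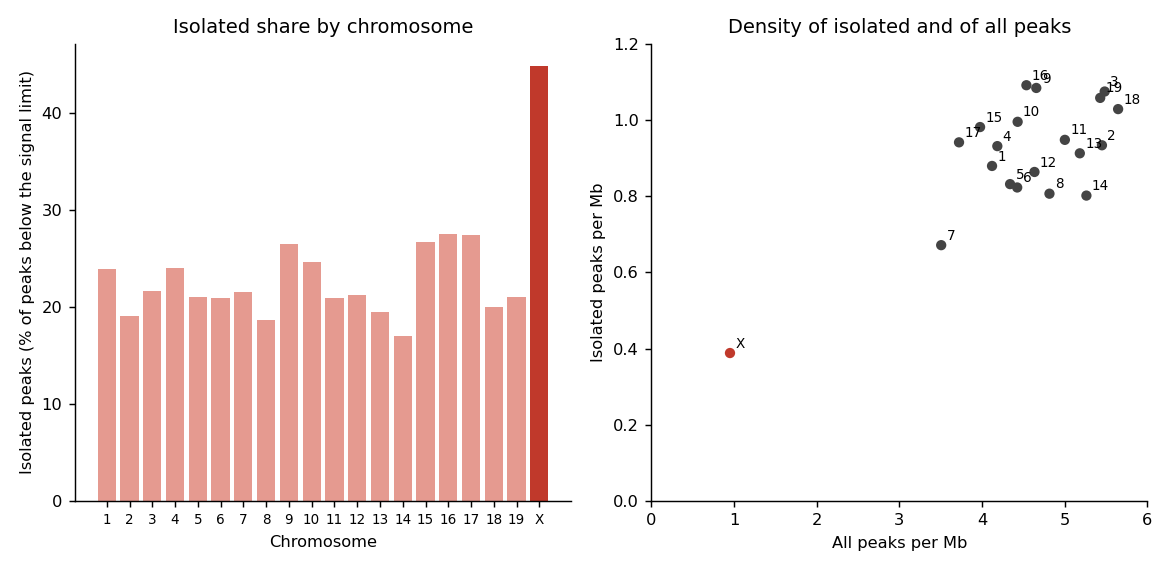
Isolated peaks as a percentage of the peaks below the signal limit on each chromosome (left), and isolated peaks per Mb against all peaks per Mb (right; 1 point per chromosome, X in red). X stands apart in both, with the highest share, 44.9%, and the lowest density, 0.388 per Mb.

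Isolated peaks on X were like those on autosomes in strength. The 62 X members had a median signal of 26.1 and quartiles of 21.7 and 33.4, against a median of 26.4 and quartiles of 21.2 and 35.3 for the 2188 autosomal members. Their median score was 854 against 876, and 33 of the 62 (53.2%) had an IDR of 0.01 or below, against 54.8%. The common width was found in 57 of the 62. Across autosomes, the median signal of isolated peaks ran from 24.1 on chromosome 11 to 28.7 on chromosome 12, and the share with an IDR of 0.01 or below from 44.6% on chromosome 11 to 68.4% on chromosome 15. X lay inside both ranges.

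Along the chromosomes isolated peaks were found at all positions. When each chromosome was divided into 5 equal parts from its first to its last summit, the isolated share of peaks below the limit was 23.02, 23.6, 22.2, 22.6 and 20.4% in order. The background over all was 22.3%. The median signal of members ranged only from 25.9 in the last part to 27.1 in the second.

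The distance from an isolated summit to its nearest neighbour had a median of 207.4 kb, with quartiles of 143.6 and 337.4 kb. On the farther side the median distance was 519.2 kb. A distance of over 200 kb was found for 1189 members (52.8%), over 500 kb for 289 (12.8%) and over 1 Mb for 61 (2.71%). Within 1 Mb an isolated peak had a median of 7 other summits, and other peaks below the limit had a median of 15. Only the 61 members named above had no other summit within 1 Mb, and some stood in dense regions, with up to 62 others in that range.

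The nearest neighbour of an isolated peak was another member in 1101 cases (48.9%). The rule itself leaves one side of that neighbour empty over 100 kb, and 41.5% of all gaps between neighbouring summits exceeded that distance, so nothing is read from this share. The neighbour was a peak at or above the limit for 185 members (8.22%). It was stronger than the member in 1156 cases (51.4%), and its median signal was 26.9 against 26.4 for the members. Peaks at or above the limit were 10.01% of the list, so they were not more frequent than that beside isolated peaks.

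Some isolated summits followed one another along the chromosome without another summit between. Such runs are built from the distances that chose the members and are given as a description only. Counting the 2438 summits of any signal without a neighbour within 100 kb, there were 1115 runs, of which 546 held a single peak and 108 held 5 or more. The longest runs held 15 peaks each. The first, on chromosome 7 with summits from 38425057 to 56706099, covered 18.3 Mb and held signals from 13.9 to 77.5, with 2 peaks at or above the limit. The other, on chromosome 10 from 105935449 to 114957443, covered 9.02 Mb, and none of its 15 peaks was at or above the limit. All 15 had the common width and 8 had an IDR of 0.01 or below. A run of 14 on chromosome 12, from 42999063 to 52662620, held 10 peaks at that IDR. The peaks of these long runs thus covered a wide range of signal. Over the whole list 60.0% of peaks had an IDR of 0.01 or below and 84.3% had the common width. The runs were chosen after their values were seen, so nothing is read from these counts.

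The most isolated peak lay on X at 116604793 to 116605208. Its summit was 6.10 Mb from the next on one side and 8.57 Mb on the other, and the next member in this order had its nearest summit 2.67 Mb away. It was an ordinary peak by the other measures, with a signal of 27.8, a width of 416 bp, a −log10 q-value of 3.57 and a score of 645, which is below the lower quartile of 683. The next 2 were on chromosome 1. The peak at 116425024 to 116425439 was that second member, with a signal of 21.5 and a score of 714. The peak at 109638896 to 109639311 was 2.65 Mb from its nearest, with a signal of 15.6 and a score of 547, near the lowest score of the list. These peaks were far from all others but not among the more reproducible ones.

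Among the 10 most isolated, 3 slightly less remote peaks had strong and reproducible calls. On chromosome 3 a peak at 13866382 to 13866529, 2.22 Mb from its nearest summit, had a signal of 58.3, a score of 1000 and a width of 148 bp, and the summits on its sides had signals of 16.8 and 15.2. A peak on chromosome 17 (21610390 to 21610805), 2.20 Mb from its nearest summit, had a signal of 48.3 and a score of 1000. On X a peak at 85855851 to 85856266 had a signal of 50.5 and a score of 1000, 2.16 Mb from its nearest. Each of these 3 was stronger than both of its neighbours. So, slightly, was the most isolated peak, at 27.8 against 27.1 and 25.6. The fourth of the 10 most isolated, also on chromosome 17 (41897284 to 41897699), had a signal value of 22.7 and a score of 685.

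The remaining 3 were on chromosomes 6, 13 and X. The chromosome 6 peak (58856919 to 58857334) had a signal of 18.97 and a score of 567. On chromosome 13 the peak (67050237 to 67050652) had a signal of 26.3 and a score of 855, and on X the peak (38669346 to 38669761) had a signal of 27.2 and a score of 937. Of the 10 most isolated peaks, 3 lay on X, 5 had an IDR of 0.01 or below and 9 had the common width. The median signal of the 10, 26.7, was near the 26.4 of all members. Among all 2250 members 62 lay on X, 54.8% had an IDR of 0.01 or below and 94.1% had the common width. Summits on X were far apart, at a mean of 1058 kb, so nothing is read from the 3 on X.

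**Figure D4:**
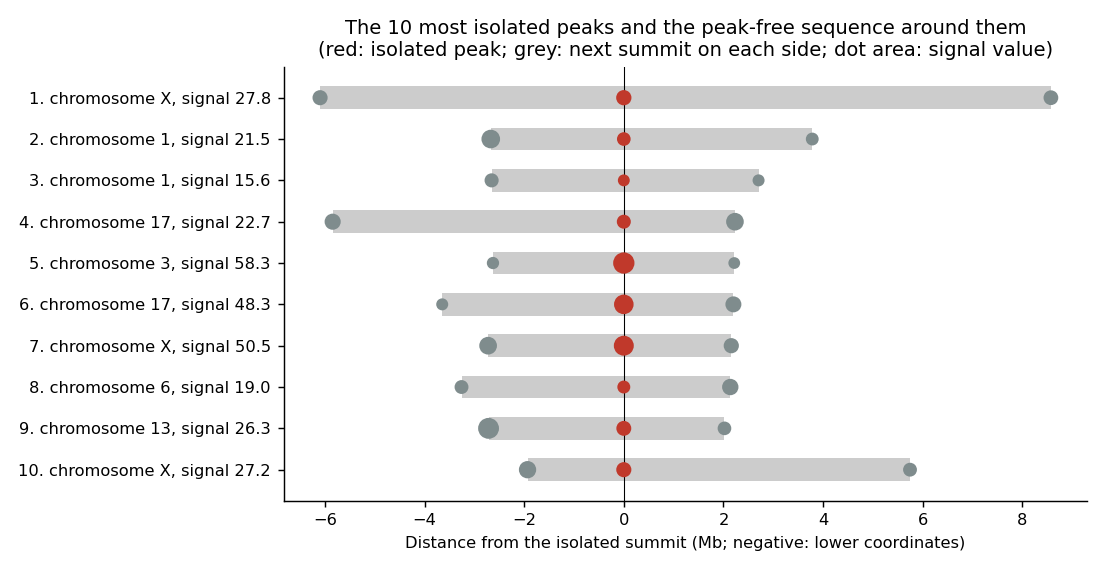
The 10 most isolated peaks (red), each with the distance in Mb to the next summit on both sides (grey), and dot areas in proportion to signal. The peak in the first line, on X, has the widest empty sequence of the 10 drawn, 6.10 and 8.57 Mb. Peaks 1, 5, 6 and 7 are stronger than both of their neighbours, peak 1 only slightly.

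The strongest members lay just below the limit by the rule. The 10 strongest had signals of 60.7 to 61.2 and all had the highest score of 1000, and 8 of the 10 were narrower than 416 bp. They came from 9 chromosomes. The strongest 3 had signals of 61.23 on chromosome 17 (30645953 to 30646115), 61.22 on chromosome 4 (130733719 to 130734134) and 60.9 on chromosome 13 (4230568 to 4230733). Their nearest summits were 149.4, 213.3 and 111.6 kb away. The most remote of the 10 was a peak on chromosome 10 at 46659651 to 46660066, 862.4 kb from its nearest summit, with 1 other summit within 1 Mb. The peak on chromosome 19 at 14965306 to 14965528 was in the densest surroundings of the 10, with 30 other summits within 1 Mb. Just above the limit, the first peaks without a neighbour had signals of 61.8, 61.9 and 61.96, and they too scored 1000.

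At the distance threshold, the members just inside were on chromosomes 3, 13 and 5, with nearest summits 100.02, 100.1 and 100.4 kb away, signals of 25.01, 24.9 and 19.1 and scores of 601, 770 and 602. The 3 peaks just outside had nearest summits 99.989 kb away, signals of 7.07, 27.1 and 29.3 and scores of 543, 848 and 1000. The first 2 of these, on chromosome 15, were each other's nearest neighbour. Within 10 kb above the threshold lay 148 members (6.58%).

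The count of members also depends on how close summits are listed. A site that is called as 2 or more overlapping peaks cannot be isolated by the rule, however empty its surroundings. There were 568 peaks below the limit whose only neighbours within 100 kb lay within 500 bp. When overlapping or touching peaks were joined and represented by the strongest, all 2250 members stayed isolated and 265 further sites below the limit became so, 2515 in all. When only peaks with an IDR of 0.01 or below were kept, the 1233 members among them stayed isolated and 622 further peaks became so, since their only neighbours within 100 kb were less reproducible. Isolation in this list is thus relative to the peaks that passed its IDR limit of 0.05.

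Positions are 1-based and as deposited. The labels name the mm10 build, but 72 summits of the list, of which 11 were isolated peaks, had higher coordinates than any protein-coding gene on the same chromosome in the RefSeq table of GRCm38.p6, the assembly that mm10 stands for. The build was therefore treated as unresolved, no gene, exon, intron or UTR was assigned to an isolated peak, and no sequence is shown. Whether isolated peaks lie nearer to or farther from genes than other peaks was not analysed here.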

How the data were processed

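ChIP-seq peaks of mouse forelimbs (2 TBX5 ChIP and 2 input libraries, grouped by their titles) were analysed from 1 deposited list without a header, in the narrowPeak layout of 10 columns. The deposited signal value is the peak caller's strength, and its scale is not given in the sources used here. The deposited score follows the usual scaling of the IDR, -125 × log2(IDR) cut to a whole number and to at most 1000, with 830 at an IDR of 0.01. The deposited −log10 q-value is that of the authors' peak caller. Aligner, peak caller, filters and any pooling of reads are not given in the sources used here, and they set which peaks and neighbours exist. The depth per library is unknown.

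Distances were taken between summits (start plus offset) on a chromosome. Medians, quartiles and shares were computed with pandas 2.3.3, SciPy 1.17.1 and NumPy 2.4.6 under Python 3.11.15; matplotlib 3.10.9 drew the figures. No test was run, since the list holds 1 value per peak and none per replicate. The script was tested on simulated lists. Named peaks were the 10 most isolated, the 10 strongest, those next to each threshold and, chosen after their values were seen, the weakest members, the longest runs and the strongest peak without a neighbour. Alternatives were other distances, a stricter IDR, joined peaks, other comparison peaks, no signal limit, and leaving out X or the outermost summits. The members and these choices were made with earlier results of these data known.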

Additional observations from a re-analysis of the deposited data

How the results depend on the processing

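Of 61 alternative values, 9 were added after the data were seen. Printed here are those that changed sign, fell to 0, moved the number by over 1.5 times or left the 95% binomial limits over peaks. These limits serve only to sort the values by size, since they cover no replicate error; the other 34 values are not listed. Differences are isolated minus comparison peaks. The number was 3412 at 50 kb and 1189 at 200 kb, in place of 2250. The difference in median signal, 1.09, was reversed to -1.17 with overlapping peaks joined, -0.643 against peaks without a stronger summit within 500 bp and -0.984 against those with no summit within 500 bp (added), and was 0.354 with no signal limit. In the same order the first 3 gave -54, -34.5 and -41.5 for the median score, in place of -8.5, and the stricter IDR gave 0, with both medians at the ceiling of 1000. For the share at an IDR of 0.01 or below, -0.951 points became -5.30 (joined), -3.74 (weighted by signal) and -3.90 (no summit within 500 bp). For the common width, 1.17 points became 2.30 at 200 kb, 2.59 joined and 3.58 with no signal limit. For a q-value of 0.05 or below, 7.30 points became 8.59 at 50 kb, 6.40 at 200 kb, 4.61 at the stricter IDR, 6.49 with no signal limit and 2.73 weighted by signal. It shrank to 0.263 joined, 0.615 without a stronger summit, 0.398 with no summit within 500 bp and 0.306 when that was also weighted. The isolated share on X was 55.1% at 50 kb and 30.4% at 200 kb, in place of 44.9%, above all autosomes each time (highest 41.1 and 15.7%). Values without X or without the outermost summits are among the 34. No paired analysis was possible because values of single replicates were not analysed here, and none could be left out. Neighbours missed for lack of reads cannot be counted, as depth is unknown.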
